A study of Pagiophloeus tsushimanus with 15 samples.

Results

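Whole larvae of the weevil Pagiophloeus tsushimanus, a borer of camphor trees, were compared by RNA sequencing fed D-camphor at 17 mg/g in their diet or the terpenoid-free diet, called untreated here. The comparison used all 3 libraries of each diet, chosen by the treatment field of the labels. The series holds 15 libraries in 5 groups, the others being D-camphor at 41 mg/g and an additive labelled EO at 10 and at 30 mg/g, with 3 libraries each. All groups share the diet as carrier, and the labels give the tissue as whole body. They do not say whether a library is 1 larva, a pool or a repeat preparation, so p-values measure only the spread between these libraries, which may be technical. Of 34486 assembled transcript groups (unigenes) in the table, 12836 had a mean of at least 1 TPM (transcript abundance scaled for transcript length and to an equal total per library) over the 6 libraries and were tested. The response is described by classes of the protein description that the table gives each unigene, which names a similar protein of another species.

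D-camphor is a monoterpenoid ketone that makes up much of the scent of the camphor tree and is toxic or repellent to many insects. Insects handle such lipophilic plant compounds in steps: cytochrome P450 enzymes and esterases add or expose a reactive group, glutathione S-transferases and UDP-glycosyltransferases attach a soluble one, and ABC transporters export the product. The cuticle, made of chitin and structural proteins and renewed at each moult, is the other barrier between a larva and its food. Juvenile hormone, whose breakdown uses epoxide hydrolases and whose synthesis passes through farnesol, is itself a terpenoid.

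The 6 libraries each had 12293 to 13659 unigenes above 1 TPM. On the log2(TPM + 1) scale the 3 D-camphor 17 mg/g libraries correlated with each other at 0.9535 to 0.9662, and the 3 untreated libraries at 0.9142 to 0.9503. The correlation between libraries of the 2 diets was 0.9033 to 0.9562. No pair of libraries held identical values. Marker lists for muscle, fat body, haemocytes and the nervous system all held unigenes above the threshold, with 46, 8, 6 and 10 members tested, as a whole larva would give.

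Of the 12836 unigenes, 5 rose with D-camphor at 17 mg/g and 0 fell (limma, adjusted p under 0.05), which is 0.039% and 0% of those tested. At an unadjusted p under 0.05 there were 850, or 6.62%, of which 608 were higher (4.74% of those tested) and 242 lower (1.89%). Under median-of-ratios scaling these shares were 3.82% higher and 2.72% lower. Single untreated libraries moved them: they were 4.87% and 6.27% without untreated replicate 1, 2.75% and 1.92% without replicate 2, and 7.44% and 1.45% without replicate 3. Of the 5 that rose, 3 are described as cytochrome P450 enzymes of the CYP6 family, a family known in insects for the oxidation of plant toxins and insecticides. The other two carry no known function. In whole larvae, a change in the number of cells of a type and a change in the RNA per cell cannot be told apart, and this holds for every value below.

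The unigene TRINITY_DN12993_c0_g1, described as a probable cytochrome P450 6a20, had 51.0, 37.0 and 41.5 TPM with D-camphor at 17 mg/g, against 0, 0 and 1.28 TPM in untreated larvae. All 3 treated libraries lay far above all 3 untreated ones, and 2 of the untreated libraries listed it at 0. Its log2 fold change was 5.06 ± 0.51 (SE; 95% interval 3.95 to 6.16; limma, adjusted p = 0.0041). It was past the threshold in all 15 fits that left out 1 library, with adjusted p from 0.00016 to 0.045.

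TRINITY_DN32261_c0_g1, described as cytochrome P450 6a2-like, had 28.5, 27.3 and 17.4 TPM with D-camphor at 17 mg/g, against 0.49, 0.53 and 1.16 TPM in untreated larvae. The groups were far apart, and the log2 fold change was 3.87 ± 0.57 (SE; limma, adjusted p = 0.046). TRINITY_DN9219_c0_g1, also described as cytochrome P450 6a2-like, had 7.95, 11.01 and 5.58 TPM with D-camphor at 17 mg/g, against 1.36, 0.70 and 1.76 TPM in untreated larvae. Of the 5 it had the lowest level on D-camphor at 17 mg/g, and its log2 fold change was 1.999 ± 0.29 (SE; limma, adjusted p = 0.046). Neither pair of groups overlapped.

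TRINITY_DN7034_c0_g1, described only as an uncharacterised protein, had 129, 142 and 55.5 TPM with D-camphor at 17 mg/g, against 3.33, 3.65 and 2.70 TPM in untreated larvae. Replicate 3 of the treated larvae was well below the other two and still far above every untreated library. Its log2 fold change was 4.60 ± 0.66 (SE; limma, adjusted p = 0.046). TRINITY_DN986_c0_g1, described as unknown, had 212, 244 and 167 TPM with D-camphor at 17 mg/g, against 28.5, 48.0 and 29.4 TPM in untreated larvae. It had the highest level of the 5 on both diets, without overlap, and its log2 fold change was 2.55 ± 0.36 (SE; limma, adjusted p = 0.046).

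**Figure D1:**
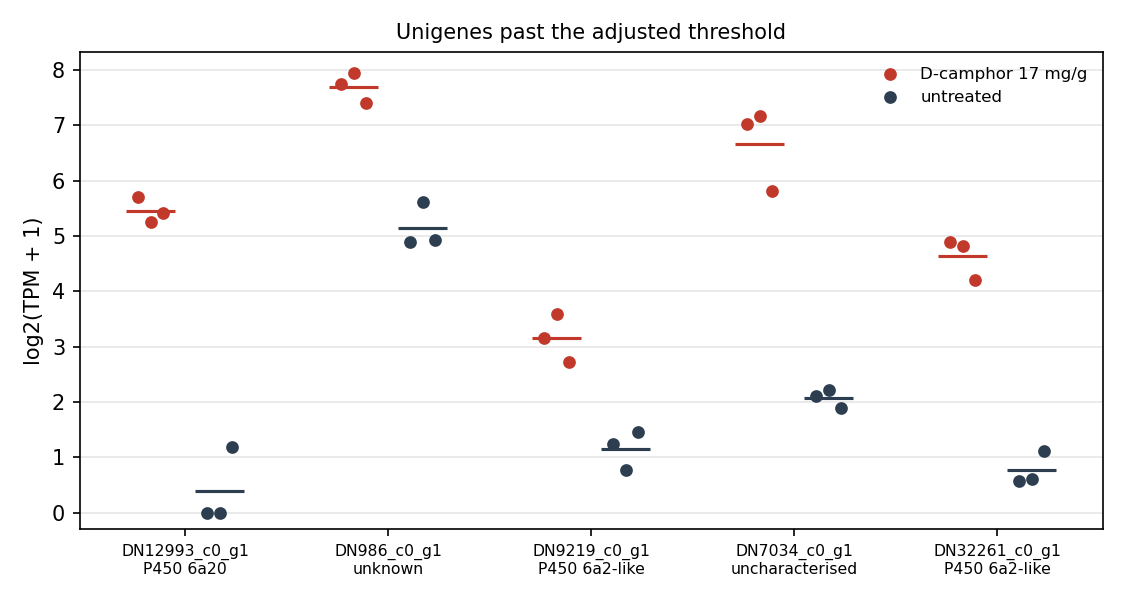
Level in log2(TPM + 1) of the 5 unigenes that passed the adjusted threshold, in each library on D-camphor at 17 mg/g (red) and in each untreated library (dark blue), with lines at the group means. In each of the 5 all treated libraries lie above all untreated ones, from a log2 difference of 1.999 for TRINITY_DN9219_c0_g1 to 5.06 for TRINITY_DN12993_c0_g1.

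The 4 calls other than TRINITY_DN12993_c0_g1 lay close to the threshold. When 1 library of the 15 was left out in turn, TRINITY_DN986_c0_g1 and TRINITY_DN32261_c0_g1 stayed past the threshold in 4 of the 15 fits, and TRINITY_DN7034_c0_g1 and TRINITY_DN9219_c0_g1 in 3. Their highest adjusted p in those fits was 0.23, and no fit changed their direction. The P450 unigenes among these 4 passed in no fit that left out a library on D-camphor at 17 mg/g or an untreated one.

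Of these 5, all but TRINITY_DN7034_c0_g1 were above every untreated library in all libraries of the other terpenoid diets. TRINITY_DN12993_c0_g1 had 45.4, 20.4 and 35.0 TPM with D-camphor at 41 mg/g, between 77.0 and 343 TPM with EO at 10 mg/g, and between 595 and 919.7 TPM with EO at 30 mg/g. TRINITY_DN32261_c0_g1 had 34.9, 12.6 and 6.30 TPM with D-camphor at 41 mg/g, between 37.1 and 138 TPM with EO at 10 mg/g, and between 131 and 271 TPM with EO at 30 mg/g. On D-camphor at 41 mg/g TRINITY_DN9219_c0_g1 had 23.8, 18.6 and 16.0 TPM. On EO it had between 55.7 and 89.6 TPM at 10 mg/g, and between 398 and 681 TPM at 30 mg/g. These P450 unigenes were each higher in every EO library than in any library on D-camphor at 17 mg/g. TRINITY_DN986_c0_g1 had 301, 136 and 190.4 TPM with D-camphor at 41 mg/g, between 491 and 1309 TPM with EO at 10 mg/g, and between 1590 and 1896 TPM with EO at 30 mg/g. TRINITY_DN7034_c0_g1 differed, with 84.4, 19.2 and 57.1 TPM with D-camphor at 41 mg/g and between 27.9 and 73.9 TPM with EO at 30 mg/g, but 2.70, 5.86 and 20.9 TPM with EO at 10 mg/g, which overlapped the untreated libraries.

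The difference between the D-camphor doses does not use the untreated means, although all 15 libraries enter its estimate of the spread. TRINITY_DN12993_c0_g1 differed by 0.41 on the log2 scale between 17 and 41 mg/g (95% interval -0.69 to 1.51; limma, adjusted p = 0.86). TRINITY_DN986_c0_g1 differed by 0.05 (95% interval -0.72 to 0.83; limma, adjusted p = 0.98). TRINITY_DN32261_c0_g1 differed by 0.70 (95% interval -0.54 to 1.94; limma, adjusted p = 0.75). TRINITY_DN7034_c0_g1 differed by 1.13 (95% interval -0.31 to 2.58; limma, adjusted p = 0.64). TRINITY_DN9219_c0_g1 was lower at 17 than at 41 mg/g in all libraries, with 7.95, 11.01 and 5.58 TPM at 17 mg/g against 23.8, 18.6 and 16.0 TPM at 41 mg/g, but the difference of -1.18 missed the adjusted threshold (95% interval -1.80 to -0.56; limma, adjusted p = 0.26). Over all 12836 unigenes, 0 passed the threshold between these doses (0%) and 1198, or 9.33%, had an unadjusted p under 0.05. The intervals are wide, so like levels at both doses were not shown.

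Against EO at 10 mg/g, 1 of the 12836 unigenes passed the threshold, or 0.00779%, and 1321 had an unadjusted p under 0.05, or 10.3%. The 1 was TRINITY_DN9219_c0_g1, with 7.95, 11.01 and 5.58 TPM on D-camphor at 17 mg/g against 55.7, 57.6 and 89.6 TPM on EO at 10 mg/g. It was lower on D-camphor in every library, with a log2 difference of -2.91 ± 0.29 (SE; limma, adjusted p = 0.0032). TRINITY_DN7034_c0_g1 went the other way in its values, with 129, 142 and 55.5 TPM on D-camphor at 17 mg/g against 2.70, 5.86 and 20.9 TPM on EO at 10 mg/g. That difference of 3.63 missed the adjusted threshold (95% interval 2.19 to 5.07; limma, adjusted p = 0.13). The 2 additives were given at unlike doses in mg/g, so this compares diets, not equal exposures.

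No class of descriptions other than cytochrome P450, and unknown proteins, held a unigene past the adjusted threshold. The classes were therefore described by their counts at an unadjusted p under 0.05, to be read against 4.74% higher and 1.89% lower of all unigenes tested with all libraries in the fit, by the members whose groups did not overlap, to be read against 8.25% higher and 2.8% lower, and by the median log2 fold change, which was 0.03 over all unigenes. Juvenile hormone epoxide hydrolases and structural cuticle proteins had the largest shares on the higher side, at 45.5% and 29.8% of tested members. Cuticle tanning, glutathione S-transferases and cytochrome P450 followed, at 20%, 18.8% and 18.4%. On the lower side, trypsin and chymotrypsin-type proteases had the largest share, at 15%. These shares describe the classes, are not tests of them, and move with single libraries, as given below for each class named here.

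**Figure D2:**
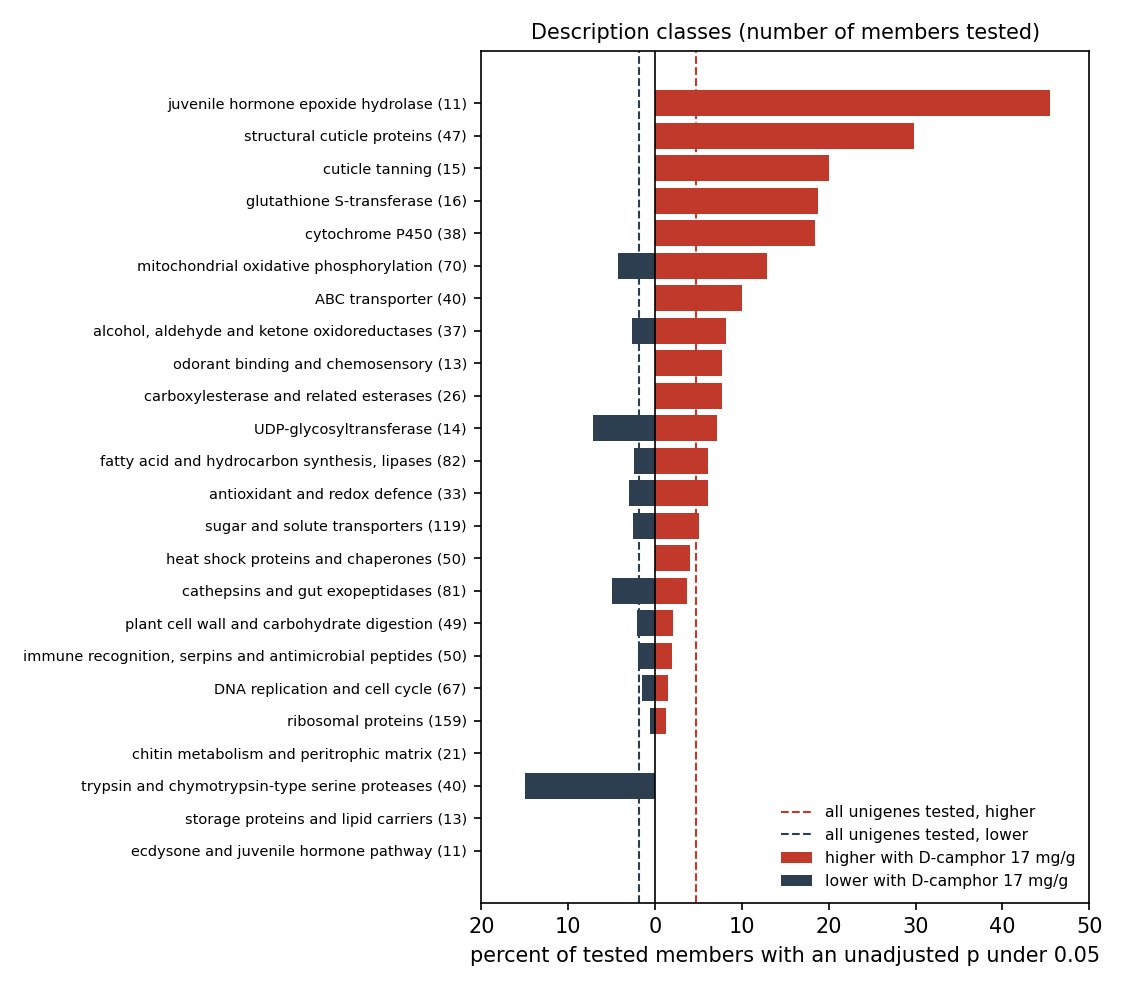
Share of the tested members of each description class with an unadjusted p under 0.05 (limma), with higher levels on D-camphor at 17 mg/g to the right and lower levels to the left of 0, for classes of at least 10 tested members. Dashed lines mark the same shares over all unigenes tested, 4.74% higher and 1.89% lower; juvenile hormone epoxide hydrolases reach 45.5% on the higher side and trypsins and chymotrypsins 15% on the lower side.

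Of 38 cytochrome P450 unigenes tested, 3 rose. At an unadjusted p under 0.05 there were 7 higher and 0 lower. With single libraries of the 2 diets left out there were 5 to 9 higher and 0 to 2 lower. The groups did not overlap in 11 with higher values and in 1 with lower values, and the median log2 fold change was 0.16. TRINITY_DN1085_c0_g1, described as a probable P450 6a14, had 77.0, 71.2 and 66.0 TPM with D-camphor at 17 mg/g, against 24.6, 30.04 and 49.2 TPM in untreated larvae. The groups were apart, but its log2 fold change of 1.08 missed the threshold (95% interval 0.33 to 1.83; limma, adjusted p = 0.48). Its mean was 937.9 TPM on EO at 30 mg/g and 109.9 TPM on D-camphor at 41 mg/g.

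Further P450 unigenes lay higher without passing. TRINITY_DN176_c0_g1, a P450 9e2-like, had 25.5, 25.9 and 22.7 TPM with D-camphor at 17 mg/g, against 16.2, 14.4 and 11.97 TPM in untreated larvae (limma, adjusted p = 0.51). TRINITY_DN3315_c0_g2, described as CYP6BW2, had 123.2, 100.5 and 91.9 TPM with D-camphor at 17 mg/g, against 63.8, 52.3 and 63.2 TPM in untreated larvae (limma, adjusted p = 0.68). Neither pair of groups overlapped. The most abundant P450, TRINITY_DN29625_c0_g1, a 6a2-like, had 1971, 2328 and 1909.5 TPM with D-camphor at 17 mg/g, against 1796, 1654 and 1112 TPM in untreated larvae, with a log2 fold change of 0.47 (limma, adjusted p = 0.81). The P450 unigenes that rose were thus minor ones: the class summed to 6603, 7229 and 6502 TPM with D-camphor at 17 mg/g, against 5763, 5774 and 4343 TPM in untreated larvae. Several 6a2-like unigenes may be near copies, and the sources used here do not say how shared reads were counted.

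Glutathione S-transferases, which conjugate electrophilic compounds to glutathione, had 3 of 16 tested members higher at an unadjusted p under 0.05 and 0 lower, with a median log2 fold change of 0.15. Without replicate 1 of the D-camphor 17 mg/g larvae 1 of 16 was higher. TRINITY_DN5947_c0_g1, described as glutathione S-transferase e2, had 79.5, 73.5 and 97.8 TPM with D-camphor at 17 mg/g, against 52.2, 36.3 and 46.9 TPM in untreated larvae. The groups did not overlap, and the log2 fold change was 0.88 ± 0.21 (SE; limma, adjusted p = 0.22). TRINITY_DN5591_c0_g1, a 1-like and the most abundant of those named, had 1437, 1204 and 1016 TPM with D-camphor at 17 mg/g, against 962, 663 and 592 TPM in untreated larvae (limma, adjusted p = 0.56). TRINITY_DN1572_c0_g1, a microsomal enzyme, had 41.99, 36.5 and 33.9 TPM with D-camphor at 17 mg/g, against 28.9, 27.3 and 30.7 TPM in untreated larvae (limma, adjusted p = 0.50). The 3 lay higher in every treated library and did not pass.

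Carboxylesterases, which hydrolyse esters and are known from insecticide resistance, had 2 of 26 tested members higher at an unadjusted p under 0.05 and 0 lower; without untreated replicate 1 there were 5 higher and 3 lower. TRINITY_DN357_c1_g1, esterase FE4-like, had 12.02, 10.34 and 10.25 TPM with D-camphor at 17 mg/g, against 3.98, 0.81 and 1.95 TPM in untreated larvae. Its log2 fold change was 1.99 ± 0.46 (SE; limma, adjusted p = 0.20). TRINITY_DN357_c0_g2, esterase B1-like, had 29.0, 36.7 and 51.4 TPM with D-camphor at 17 mg/g, against 26.5, 17.7 and 14.7 TPM in untreated larvae (limma, adjusted p = 0.35). The most abundant esterase, TRINITY_DN16380_c0_g1, a venom carboxylesterase-6-like, was near even, with 403, 449 and 357 TPM with D-camphor at 17 mg/g, against 399.5, 460.2 and 311 TPM in untreated larvae.

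UDP-glycosyltransferases, which attach sugars, had 1 of 14 tested members higher and 1 lower at an unadjusted p under 0.05, with a median log2 fold change of -0.21. The class summed to 198, 229.8 and 218 TPM with D-camphor at 17 mg/g, against 217, 338 and 414 TPM in untreated larvae. TRINITY_DN1100_c0_g1, a 2B15-like, had 15.3, 27.5 and 9.36 TPM with D-camphor at 17 mg/g, against 12.97, 85.6 and 98.3 TPM in untreated larvae. The groups overlapped through untreated replicate 1 (limma, adjusted p = 0.77). Sulfotransferases had 0 of 4 tested members with an unadjusted p under 0.05.

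ABC transporters had 4 of 40 tested members higher at an unadjusted p under 0.05 and 0 lower, with a median log2 fold change of 0.10. The count of higher members was 2 without replicate 1 or replicate 2 of the D-camphor 17 mg/g larvae, and 7 without untreated replicate 1 or replicate 3. These counts leave out TRINITY_DN18260_c0_g1, a pleiotropic ABC efflux transporter that the words of the class did not pick up. It was lower with groups apart, at a log2 fold change of -1.25 (limma, unadjusted p = 9.8e-05, adjusted p = 0.074). TRINITY_DN3699_c0_g1, a mitochondrial subfamily B member, had 7.92, 8.31 and 7.63 TPM with D-camphor at 17 mg/g, against 5.89, 5.37 and 6.12 TPM in untreated larvae (limma, adjusted p = 0.40). TRINITY_DN3162_c0_g1, scarlet, which in Drosophila carries eye pigment precursors, had 3.89, 4.01 and 2.94 TPM with D-camphor at 17 mg/g, against 2.36, 2.62 and 1.72 TPM in untreated larvae (limma, adjusted p = 0.66). The most abundant, TRINITY_DN11765_c0_g1, a probable multidrug resistance-associated protein, had 95.6, 103.5 and 109.2 TPM with D-camphor at 17 mg/g, against 96.7, 50.04 and 58.7 TPM in untreated larvae. Its groups overlapped by untreated replicate 1 alone (limma, adjusted p = 0.77).

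**Figure D3:**
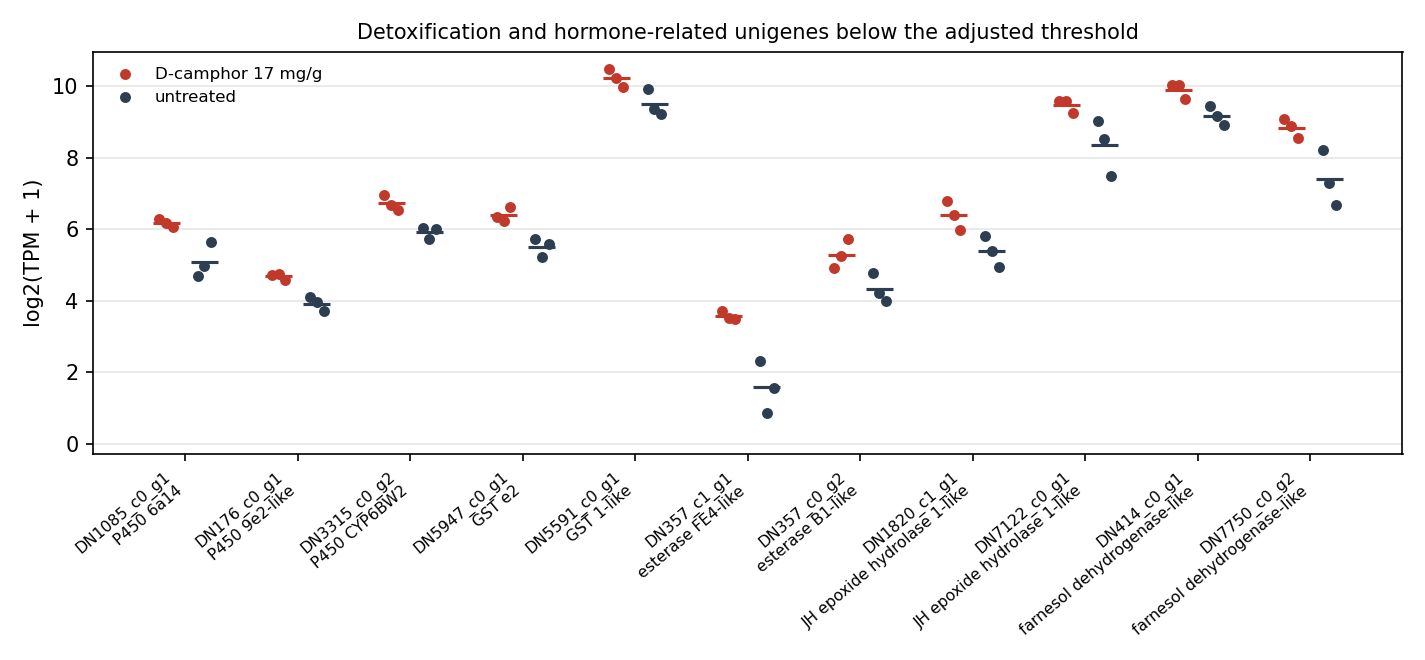
Level in log2(TPM + 1) of 11 detoxification and hormone-related unigenes that did not pass the adjusted threshold, in each library on D-camphor at 17 mg/g (red) and in each untreated library (dark blue), with lines at the group means. The 11 were picked by hand among members with higher values and groups that did not overlap, so the treated libraries lie above the untreated ones by choice. Other such members, and those with lower values, are not drawn. The log2 differences run from 0.73 for TRINITY_DN414_c0_g1 to 1.99 for TRINITY_DN357_c1_g1.

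Juvenile hormone epoxide hydrolases open the epoxide ring of juvenile hormone, and related insect enzymes also act on foreign epoxides. Of 11 tested, 5 were higher at an unadjusted p under 0.05 and 0 lower, 0 passed the adjusted threshold, and the median log2 fold change was 0.87. TRINITY_DN7122_c0_g1 had 765, 763 and 605 TPM with D-camphor at 17 mg/g, against 523, 368 and 177 TPM in untreated larvae, with a log2 fold change of 1.12 ± 0.40 (SE; limma, adjusted p = 0.555). TRINITY_DN1820_c1_g1 had 109.4, 83.2 and 61.5 TPM with D-camphor at 17 mg/g, against 55.4, 41.1 and 29.6 TPM in untreated larvae (limma, adjusted p = 0.55). Both pairs of groups were apart. The most abundant, TRINITY_DN41_c0_g1, had 1044, 1029.8 and 816 TPM with D-camphor at 17 mg/g, against 842, 573 and 274 TPM in untreated larvae, and its groups overlapped.

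The class total was 3546, 3451 and 2774 TPM with D-camphor at 17 mg/g, against 2797, 1933 and 982 TPM in untreated larvae. Untreated replicate 3 was the lowest by far. Without that library the median log2 fold change of the class was 0.39 and 0 of 11 members had an unadjusted p under 0.05, so the count rests on it. Without replicate 1 of the D-camphor 17 mg/g larvae 1 of 11 did, without their replicate 2 there were 2, without untreated replicate 2 there were 3, and without untreated replicate 1 there were 8. Under median-of-ratios scaling there were 2, and with limma fitted to the 6 libraries of the 2 diets alone there were 3. The other members of the ecdysone and juvenile hormone pathway showed 0 of 11 with an unadjusted p under 0.05. Among them TRINITY_DN22851_c0_g1, ecdysone 20-monooxygenase, which makes the active moulting hormone, had 34.5, 38.0 and 37.4 TPM with D-camphor at 17 mg/g, against 36.0, 28.8 and 38.0 TPM in untreated larvae.

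Alcohol, aldehyde and ketone oxidoreductases had 3 of 37 tested members higher and 1 lower at an unadjusted p under 0.05, and 5 of 38 higher and 5 lower without untreated replicate 1. The groups did not overlap in 8, or 21.6%, all with higher values, and 5 of these 8 are described as farnesol dehydrogenase, an enzyme that oxidises the terpenoid alcohol farnesol. TRINITY_DN414_c0_g1, farnesol dehydrogenase-like, had 1052, 1044 and 798 TPM with D-camphor at 17 mg/g, against 699, 571 and 484 TPM in untreated larvae (limma, adjusted p = 0.45). TRINITY_DN7750_c0_g2, of the same description, had 536.5, 473 and 371 TPM with D-camphor at 17 mg/g, against 294, 155 and 102 TPM in untreated larvae, with a log2 fold change of 1.44 ± 0.45 (SE; limma, adjusted p = 0.47). Neither passed, and untreated replicate 3 was again the lowest. The most abundant of the class, TRINITY_DN15822_c1_g1, an aldo-keto reductase, had 1994, 1861 and 2066 TPM with D-camphor at 17 mg/g, against 2109, 1376 and 1000.3 TPM in untreated larvae, and its groups overlapped.

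Structural cuticle proteins had the highest median log2 fold change of the classes described above. Of 47 tested, 14 were higher at an unadjusted p under 0.05 and 0 lower. The groups did not overlap in 22, or 46.8%, all with higher values on D-camphor at 17 mg/g, and the median log2 fold change was 1.08. None passed the adjusted threshold with all 15 libraries in the fit. The 75 members in the table summed to 29269.5, 10899.8 and 28849 TPM with D-camphor at 17 mg/g, against 8009.8, 4252 and 7493 TPM in untreated larvae. The sums did not overlap.

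The most abundant member was TRINITY_DN36604_c1_g1, described as endocuticle structural glycoprotein SgAbd-3-like, a type of protein first known from the locust abdomen. It had 8117, 3441 and 12156 TPM with D-camphor at 17 mg/g, against 855, 50.6 and 872 TPM in untreated larvae. All treated libraries were above all untreated ones, but untreated replicate 2 lay far below the other two, and the log2 fold change of 4.37 had a wide error (95% interval 0.62 to 8.12; limma, adjusted p = 0.66). A second unigene of this description, TRINITY_DN38771_c0_g1, followed the same order of libraries, with 3274, 1341 and 4610.1 TPM with D-camphor at 17 mg/g, against 352, 21.6 and 337 TPM in untreated larvae (limma, adjusted p = 0.67).

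A larval and a flexible cuticle protein also had groups apart, with a wide spread between treated libraries. TRINITY_DN24856_c0_g1, larval cuticle protein 65Ag1-like, had 639, 88.1 and 616 TPM with D-camphor at 17 mg/g, against 4.84, 1.46 and 4.50 TPM in untreated larvae (limma, adjusted p = 0.58). TRINITY_DN9676_c0_g1, flexible cuticle protein 12-like, had 219, 7.67 and 88.6 TPM with D-camphor at 17 mg/g, against 3.92, 0.55 and 2.84 TPM in untreated larvae (limma, adjusted p = 0.89). Replicate 2 of the treated larvae was the low one in both. Over the 22 members whose groups did not overlap, replicate 2 was the lowest of the D-camphor 17 mg/g libraries in 19, and untreated replicate 2 was the lowest of the untreated libraries in 15.

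Further members were at or near 0, or below 20 TPM, in untreated larvae. TRINITY_DN715_c0_g1, cuticle protein-like, had 378, 193 and 413 TPM with D-camphor at 17 mg/g, against 6.38, 3.50 and 17.2 TPM in untreated larvae, with a log2 fold change of 5.21 ± 1.65 (SE; limma, adjusted p = 0.48). TRINITY_DN624_c0_g2, cuticle protein 16.5-like, had 493, 209 and 442 TPM with D-camphor at 17 mg/g, against 9.08, 4.66 and 11.3 TPM in untreated larvae (limma, adjusted p = 0.48). TRINITY_DN2281_c0_g1, cuticle protein 3-like, had 16.7, 12.5 and 16.1 TPM with D-camphor at 17 mg/g, against 0.10, 0 and 0.04 TPM in untreated larvae (limma, adjusted p = 0.37). TRINITY_DN1433_c1_g1, cuticle protein 16.5-like, had 136.6, 19.9 and 43.3 TPM with D-camphor at 17 mg/g and was listed at 0 in all 3 untreated libraries. TRINITY_DN3178_c0_g1, an endocuticle structural glycoprotein, had 4.86, 7.82 and 14.95 TPM with D-camphor at 17 mg/g, against 0.05, 0 and 0 TPM in untreated larvae.

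**Figure D4:**
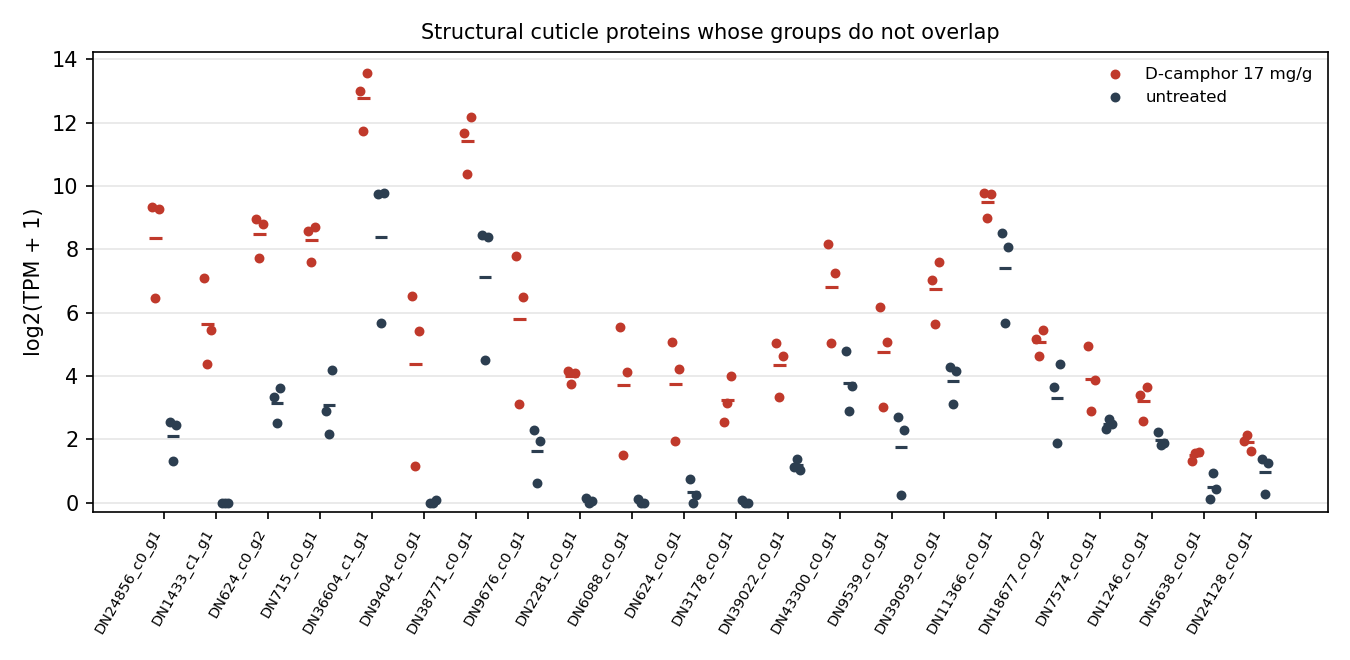
Level in log2(TPM + 1) of the 22 structural cuticle proteins whose groups did not overlap, ordered by log2 difference, in each library on D-camphor at 17 mg/g (red) and in each untreated library (dark blue), with lines at the group means. TRINITY_DN36604_c1_g1 is the most abundant, at 3441 to 12156 TPM with D-camphor and 50.6 to 872 TPM in untreated larvae.

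Not every cuticle protein was higher. Of the 47, 12 had a log2 fold change below 0, and in all 12 untreated replicate 1 was the lowest untreated library, at 0 TPM in 7. TRINITY_DN5272_c0_g2, cuticle protein 19-like, had 25.1, 7.21 and 0.41 TPM with D-camphor at 17 mg/g, against 0, 67.0 and 19.5 TPM in untreated larvae. TRINITY_DN5272_c0_g6, adult-specific cuticular protein ACP-20-like, had 15.1, 13.6 and 0.16 TPM with D-camphor at 17 mg/g, against 0, 75.8 and 14.9 TPM in untreated larvae. The groups overlapped in both, and both come from 1 assembled component, so they may share sequence. Cuticle proteins thus differed widely between libraries of the same diet.

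The libraries of the other diets entered the estimate of the spread, and cuticle proteins varied within those diets too. The cuticle sum was between 10907 and 57292 TPM with D-camphor at 41 mg/g, between 6174 and 93016 TPM with EO at 10 mg/g, and between 13907 and 58036 TPM with EO at 30 mg/g. When limma was fitted to the 6 libraries of the 2 diets alone, 24 unigenes rose (0.187% of those tested) and 1 fell (0.00779%). Of these 25, 5 were structural cuticle proteins, namely TRINITY_DN2281_c0_g1, TRINITY_DN715_c0_g1, TRINITY_DN624_c0_g2, TRINITY_DN1433_c1_g1 and TRINITY_DN3178_c0_g1, with adjusted p from 0.0015 to 0.046. The number of cuticle proteins with an unadjusted p under 0.05 was then 23. It was 24 higher and 1 lower without replicate 1 of each EO diet and replicate 2 of D-camphor at 41 mg/g. These 3 libraries have the highest cuticle sums. Leaving them out lowers the spread of cuticle proteins through the choice itself, so nothing is concluded from that count. With all diets in the fit it was 5 of 46 without replicate 1 of the D-camphor 17 mg/g larvae, 6 of 46 without their replicate 3, and 7 of 47 without untreated replicate 2.

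**Figure D5:**
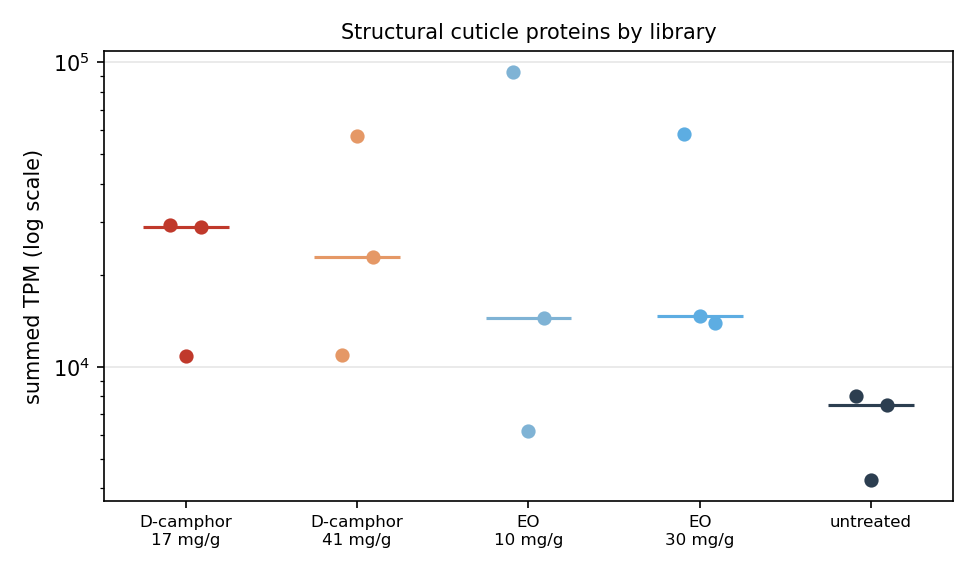
Summed TPM of the 75 structural cuticle proteins in each of the 15 libraries, on a log axis, by diet, with a line at each group's median. The D-camphor 17 mg/g libraries sit at 10899.8 to 29269.5 TPM, all above the untreated libraries at 4252 to 8009.8 TPM, and each of the other terpenoid diets has 1 library at 57292 TPM or above.

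Unigenes described as glycine-rich cell wall structural proteins, a name from plants that in insects is given to glycine-rich sequences of no set function, were grouped after their values had been seen. Of 8 tested, 5 were higher at an unadjusted p under 0.05 and 0 lower, and 6 did not overlap, all with higher values. The exception in direction was TRINITY_DN365_c0_g1, with 2.74, 75.02 and 0.87 TPM with D-camphor at 17 mg/g, against 0.37, 507 and 200.5 TPM in untreated larvae, a log2 fold change of -2.68 with overlapping groups (limma, adjusted p = 0.92). TRINITY_DN2541_c0_g1 had the largest log2 fold change of the described unigenes named, 6.91, with 261, 225 and 339.6 TPM with D-camphor at 17 mg/g, against 0.91, 0.08 and 4.67 TPM in untreated larvae (95% interval 2.57 to 11.25; limma, adjusted p = 0.39). TRINITY_DN1141_c0_g1 had 351, 159 and 656 TPM with D-camphor at 17 mg/g, against 4.58, 0.09 and 6.77 TPM in untreated larvae (limma, adjusted p = 0.32). TRINITY_DN7800_c0_g1 had 137, 125 and 215 TPM with D-camphor at 17 mg/g, against 0.10, 0.15 and 6.94 TPM in untreated larvae (limma, adjusted p = 0.32). The treated libraries were above the untreated ones in all 3. TRINITY_DN2541_c0_g1 and TRINITY_DN5193_c0_g1 were called when the 2 diets were fitted alone, with adjusted p of 0.018 and 0.016.

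The other described unigenes of the 12 with the largest positive differences and groups apart were of mixed kinds. TRINITY_DN5698_c0_g1, mucin-3A-like, a description of secreted proteins rich in sugar side chains, had 266, 147 and 349 TPM with D-camphor at 17 mg/g, against 1.04, 0.70 and 2.32 TPM in untreated larvae. Its log2 fold change was 6.73 (limma, adjusted p = 0.26), and it was called in the fit of the 2 diets alone (limma, adjusted p = 0.0058). TRINITY_DN42053_c0_g1, described as a transcription elongation factor spt5-like, had 115, 86.1 and 165 TPM with D-camphor at 17 mg/g, against 1.73, 0.34 and 4.75 TPM in untreated larvae (limma, adjusted p = 0.33). TRINITY_DN25006_c0_g1, a hypothetical protein, had 464, 476 and 736 TPM with D-camphor at 17 mg/g, against 0, 229 and 0 TPM in untreated larvae, so untreated replicate 2 stood far from the other two. Of the remaining 4, TRINITY_DN931_c0_g3, TRINITY_DN3394_c0_g1, TRINITY_DN2267_c0_g1 and TRINITY_DN12137_c0_g1, each is a hypothetical or uncharacterised protein, with log2 fold changes from 5.58 to 6.78. TRINITY_DN12137_c0_g1 had 37.7, 33.5 and 90.6 TPM with D-camphor at 17 mg/g, against 0.08, 0 and 0.04 TPM in untreated larvae (limma, adjusted p = 0.16).

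Genes of cuticle tanning, the pigmentation and hardening of new cuticle, had 3 of 15 tested members higher at an unadjusted p under 0.05 and 0 lower, yet a median log2 fold change of 0.00. Leaving out single libraries of the 2 diets gave 2 or 3 higher and 0 to 2 lower. The groups did not overlap in 7 with higher values, or 46.7%, and in 1 with lower values, or 6.67%. TRINITY_DN5684_c0_g1, yellow, which in Drosophila is needed for black pigment, had 4.49, 4.49 and 6.13 TPM with D-camphor at 17 mg/g, against 1.22, 1.07 and 1.70 TPM in untreated larvae (limma, adjusted p = 0.51). TRINITY_DN10105_c0_g1, aromatic-L-amino-acid decarboxylase-like, which makes dopamine from DOPA, had 2.38, 2.14 and 2.69 TPM with D-camphor at 17 mg/g, against 0.33, 0.63 and 0.57 TPM in untreated larvae (limma, adjusted p = 0.52). The most abundant, TRINITY_DN36873_c0_g1, yellow-like, had 1741, 1076 and 847 TPM with D-camphor at 17 mg/g, against 710.1, 626 and 222 TPM in untreated larvae (limma, adjusted p = 0.89). Groups were apart in all 3. Chitin metabolism and the peritrophic matrix, the lining of the midgut, had 0 of 21 tested members with an unadjusted p under 0.05, and a median of -0.17.

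Trypsin and chymotrypsin-type serine proteases, which include digestive endopeptidases of the midgut in many insects, lay on the lower side. Of 40 tested, 6 were lower at an unadjusted p under 0.05 and 0 higher. Not all 6 are described as trypsins or chymotrypsins. TRINITY_DN40286_c0_g1, with the smallest p, is a mannose-binding lectin associated serine protease-3 described from Branchiostoma belcheri, not an insect. It had 0.65, 0.31 and 0.64 TPM with D-camphor at 17 mg/g, against 2.55, 1.45 and 0.85 TPM in untreated larvae. Another, TRINITY_DN15181_c1_g3, is transmembrane protease serine 9-like. The count of lower members was 2 of 40 without replicate 3 of the D-camphor 17 mg/g larvae, 4 of 40 without their replicate 1 or 2, 3 of 40 without untreated replicate 2, and 3 of 39 without untreated replicate 3. The groups did not overlap in 6, all lower, and 9 of the 40 had a log2 fold change above 0, with a class median of -0.25. TRINITY_DN37228_c0_g1, a trypsin precursor, had 1445, 1526 and 1310.1 TPM with D-camphor at 17 mg/g, against 2368, 2183 and 1705 TPM in untreated larvae, with a log2 fold change of -0.54 ± 0.23 (SE; limma, adjusted p = 0.69). TRINITY_DN5345_c0_g1, trypsin-4-like, had 31.4, 30.7 and 28.3 TPM with D-camphor at 17 mg/g, against 43.0, 51.2 and 47.9 TPM in untreated larvae (limma, adjusted p = 0.68). The most abundant, TRINITY_DN14377_c0_g1, had 5196, 4566 and 4595 TPM with D-camphor at 17 mg/g, against 6348, 5238 and 6108 TPM in untreated larvae (limma, adjusted p = 0.76). All 3 were lower in every treated library and did not pass. The class summed to 13436.5, 12382 and 10912 TPM with D-camphor at 17 mg/g, against 17466, 13535 and 15819.7 TPM in untreated larvae.

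Cathepsins and gut exopeptidases, which include the most abundant enzymes of these larvae, had 3 of 81 tested members higher and 4 lower at an unadjusted p under 0.05, and 2 higher and 0 lower without replicate 1 of the D-camphor 17 mg/g larvae. The lower count was 1 without their replicate 2, and 2 without their replicate 3 or untreated replicate 3. TRINITY_DN14638_c0_g1, a cathepsin L precursor, had 17371, 17229.8 and 16149.8 TPM with D-camphor at 17 mg/g, against 19549.8, 17088 and 14237 TPM in untreated larvae, and its log2 fold change was 0.01. TRINITY_DN36551_c0_g1, carboxypeptidase B-like, had 1373, 1388 and 1278 TPM with D-camphor at 17 mg/g, against 2196, 1881 and 2056 TPM in untreated larvae (limma, adjusted p = 0.67). TRINITY_DN6329_c0_g1, cathepsin L1-like, had 18.9, 8.75 and 22.7 TPM with D-camphor at 17 mg/g, against 5.04, 2.63 and 3.88 TPM in untreated larvae (limma, adjusted p = 0.55). Members of 1 class thus lay on both sides. Enzymes of plant cell wall and carbohydrate digestion had 1 of 49 higher and 1 lower, with a median of 0.07.

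Of 70 tested members of mitochondrial oxidative phosphorylation, the groups did not overlap in 22 with higher values (31.4%) and 7 with lower values (10%). At an unadjusted p under 0.05, 9 of the 70 were higher and 3 lower. Median-of-ratios scaling gave 3 higher and 3 lower, as did the fit of the 2 diets alone. The higher count rests on single libraries: it was 0 without untreated replicate 2, 2 without replicate 3 and 4 without replicate 1 of the D-camphor 17 mg/g larvae, and 6 without their replicate 2 or untreated replicate 3. The 9 are subunits that the nucleus encodes in animals, with small differences: TRINITY_DN7116_c0_g3, the alpha subunit of ATP synthase, had 439, 415 and 461 TPM with D-camphor at 17 mg/g, against 388, 306 and 364 TPM in untreated larvae, a log2 fold change of 0.32 (limma, adjusted p = 0.68). TRINITY_DN10020_c1_g2, cytochrome c, had 252, 234 and 229.7 TPM with D-camphor at 17 mg/g, against 213, 107 and 135 TPM in untreated larvae (limma, adjusted p = 0.56). The most abundant member, TRINITY_DN8201_c1_g1, cytochrome c oxidase subunit 1, which the mitochondrial genome encodes in animals, went the other way, with 3257, 2926 and 4100.3 TPM with D-camphor at 17 mg/g, against 4510.5, 4234 and 4968 TPM in untreated larvae (limma, adjusted p = 0.90). The groups were apart in each of these 3.

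The 3 members of that class that were lower at an unadjusted p under 0.05 are described from echinoderms, not insects. TRINITY_DN14843_c0_g2, cytochrome c oxidase subunit I, had 1.68, 1.08 and 0.98 TPM with D-camphor at 17 mg/g, against 7.51, 3.87 and 1.62 TPM in untreated larvae. All mitochondrial unigenes described from animals other than arthropods summed to 21.3, 14.2 and 23.6 TPM with D-camphor at 17 mg/g, against 45.1, 21.2 and 12.1 TPM in untreated larvae, so the groups overlapped. Of 179 tested unigenes described from such animals, 10 were higher and 9 lower at an unadjusted p under 0.05. One of them, TRINITY_DN2254_c0_g1, a hypothetical protein described from the nematode Trichinella, had 13.2, 31.2 and 29.7 TPM with D-camphor at 17 mg/g, against 4.29, 5.57 and 2.37 TPM in untreated larvae, with a log2 fold change of 2.30 ± 0.37 (SE; limma, adjusted p = 0.074). Its mean was 2.85 TPM with D-camphor at 41 mg/g, 4.53 TPM with EO at 10 mg/g and 5.17 TPM with EO at 30 mg/g. Whether these sequences come from the larvae was not tested.

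Stress classes stood near the background of 4.74% higher, and housekeeping classes below it. Heat shock proteins and chaperones had 2 of 50 tested members higher (4%) and 0 lower at an unadjusted p under 0.05, with a median log2 fold change of 0.01. Ribosomal proteins had 2 of 159 higher (1.26%) and 1 lower (0.629%), and DNA replication and cell cycle genes 1 of 67 higher and 1 lower (1.49% each). Antioxidant enzymes had 2 of 33 higher (6.06%) and 1 lower (3.03%). In that class TRINITY_DN1569_c0_g1, a probable phospholipid hydroperoxide glutathione peroxidase, which reduces oxidised membrane lipids, had 345, 327 and 181 TPM with D-camphor at 17 mg/g, against 123.1, 133 and 64.6 TPM in untreated larvae. The groups were apart, and the log2 fold change was 1.42 ± 0.36 (SE; limma, adjusted p = 0.28). TRINITY_DN14199_c0_g1, catalase-like, which breaks down hydrogen peroxide, lay the other way, with 10.9, 11.99 and 13.2 TPM with D-camphor at 17 mg/g, against 14.8, 31.3 and 24.5 TPM in untreated larvae (limma, adjusted p = 0.53).

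Transporters of sugars and other solutes had 6 of 119 tested members higher and 3 lower at an unadjusted p under 0.05. TRINITY_DN3536_c1_g1, monocarboxylate transporter 7-like, had a small difference with little spread, 8.68, 8.31 and 8.11 TPM with D-camphor at 17 mg/g, against 4.75, 4.45 and 5.44 TPM in untreated larvae, with a log2 fold change of 0.67 ± 0.13 (SE; limma, adjusted p = 0.10). Fatty acid and hydrocarbon synthesis and lipases had 5 of 82 higher and 2 lower. Its most abundant member, TRINITY_DN5087_c0_g1, a pancreatic lipase-related digestive enzyme, had 415, 319 and 414 TPM with D-camphor at 17 mg/g, against 510.1, 474 and 538 TPM in untreated larvae (limma, adjusted p = 0.67). Storage proteins and lipid carriers had 0 of 13 with an unadjusted p under 0.05.

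Odorant binding and chemosensory proteins, which carry small lipophilic molecules, had 1 of 13 tested members higher and 0 lower at an unadjusted p under 0.05. The most abundant, TRINITY_DN37769_c0_g1, odorant binding protein 12, had 2163, 3477 and 3717 TPM with D-camphor at 17 mg/g, against 2764, 3655 and 4989 TPM in untreated larvae, with overlapping groups. Immune recognition proteins, serpins and antimicrobial peptides had 1 of 50 higher and 1 lower. TRINITY_DN701_c1_g1, a serpin described as antichymotrypsin-2-like, had 9.09, 8.70 and 14.2 TPM with D-camphor at 17 mg/g, against 7.90, 5.29 and 4.42 TPM in untreated larvae (limma, adjusted p = 0.32).

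Marker lists for tissues differed in how many members lay above 0. In the muscle list 39 of 46 tested members had a log2 fold change above 0, against 7078 of all 12836 unigenes. The muscle median was 0.12, against 0.03 over all unigenes. In the fat body list 6 of 8 lay above 0, and in the haemocyte list 1 of 6. The muscle list, with 2 of 46 tested members higher and 0 lower at an unadjusted p under 0.05, summed to 32085, 29253 and 37384 TPM with D-camphor at 17 mg/g, against 26808, 26378 and 40746 TPM in untreated larvae. Its member with the smallest p, TRINITY_DN10879_c0_g1, troponin C, a calcium sensor of muscle, had 58.1, 50.3 and 76.9 TPM with D-camphor at 17 mg/g, against 42.5, 33.1 and 41.7 TPM in untreated larvae (limma, adjusted p = 0.23). The fat body list summed to 3760.4, 5692 and 4469 TPM with D-camphor at 17 mg/g, against 4581, 4108 and 3906 TPM in untreated larvae. The haemocyte list summed to 226, 298 and 307 TPM with D-camphor at 17 mg/g, against 225, 468 and 372 TPM in untreated larvae. The groups overlapped in all 3 lists.

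The germ line list summed to 471, 442 and 629 TPM with D-camphor at 17 mg/g, against 249, 149.7 and 245 TPM in untreated larvae, with no overlap, and this rested on 1 member. That member was TRINITY_DN2916_c0_g1, described as vitelline membrane protein Vm26Ab-like, an eggshell protein in Drosophila. It had 341, 298 and 489 TPM with D-camphor at 17 mg/g, against 148, 27.4 and 106 TPM in untreated larvae, with a log2 fold change of 2.27 (95% interval -0.09 to 4.62; limma, adjusted p = 0.76). Without it the list summed to 130.3, 144 and 139 TPM with D-camphor at 17 mg/g, against 102, 122 and 139 TPM in untreated larvae, and the groups overlapped. At an unadjusted p under 0.05, 1 of the 11 tested members was higher and 0 lower.

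On the lower side, the named unigenes were mostly of low level. Of the 12 described unigenes with the largest negative log2 fold change and groups apart, 11 had no untreated library above 14.2 TPM. TRINITY_DN25180_c0_g1, flocculation protein FLO5-like, was listed at 0 in all 3 libraries on D-camphor at 17 mg/g and had 0.91, 3.60 and 5.20 TPM in untreated larvae (limma, adjusted p = 0.074). TRINITY_DN28504_c0_g1, an uncharacterised protein, was listed at 0 in all 3 libraries on D-camphor at 17 mg/g and had 2.32, 2.50 and 1.25 TPM in untreated larvae (limma, adjusted p = 0.10). TRINITY_DN18260_c0_g1, a pleiotropic ABC efflux transporter, had 0.55, 0.07 and 0.32 TPM with D-camphor at 17 mg/g, against 2.91, 1.39 and 2.12 TPM in untreated larvae (limma, adjusted p = 0.074).

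The single abundant one, TRINITY_DN516_c0_g2, a hypothetical protein, had 118.9, 151 and 103 TPM with D-camphor at 17 mg/g, against 225, 236 and 424 TPM in untreated larvae, with a log2 fold change of -1.19 ± 0.33 (SE; limma, adjusted p = 0.35). TRINITY_DN1422_c0_g1, described as elongation factor 1-alpha of a priapulid worm, had 1.07, 0.62 and 0.60 TPM with D-camphor at 17 mg/g, against 2.70, 3.31 and 3.98 TPM in untreated larvae (limma, adjusted p = 0.093). TRINITY_DN750_c0_g1, hexose transporter HXT13-like, had 1.38, 0.39 and 0.92 TPM with D-camphor at 17 mg/g, against 5.96, 2.37 and 4.09 TPM in untreated larvae (limma, adjusted p = 0.20). The mean of TRINITY_DN750_c0_g1 was 0.36 TPM with D-camphor at 41 mg/g, 0.67 TPM with EO at 10 mg/g and 0.34 TPM with EO at 30 mg/g. None of the 12 passed with all 15 libraries in the fit and low values filtered out. Without the filter TRINITY_DN18260_c0_g1, TRINITY_DN25180_c0_g1 and TRINITY_DN28504_c0_g1 passed (limma, adjusted p from 0.029 to 0.043). TRINITY_DN25180_c0_g1 and TRINITY_DN28504_c0_g1 also each passed in 1 of the 15 fits that left out 1 library. Whether each of the 12 comes from the larvae was not tested.

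Most of the tested unigenes carry no class. Of the 12836, 3601 have no description and 3611 are described as unknown or uncharacterised, and these held 162 and 180 of the 608 unigenes with higher values at an unadjusted p under 0.05. TRINITY_DN6303_c7_g1, a hypothetical protein, had 1077, 1102 and 918 TPM with D-camphor at 17 mg/g, against 353, 298 and 248 TPM in untreated larvae. Its log2 fold change was 1.79 ± 0.33 (SE; limma, adjusted p = 0.085 with all diets and 0.034 with the 2 diets alone). It was chosen after its values were seen, as 1 of the 25 unigenes called in the fit of the 2 diets alone.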

How the data were processed

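RNA of whole larvae was sequenced in 15 libraries of 5 diets. Per the labels' protocols, total RNA was extracted with TRIzol. Assembler, aligner, counting method and build were not given in the sources used here. Values were deposited as TPM, scaled by the authors for transcript length so that libraries have equal totals, and rounded to 2 decimals. Columns summed to between 999999.16 and 1000001.21. TPM keeps no read counts, so depth and counting precision are unknown. Columns were matched to libraries by letter and replicate number in the titles.

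TPM was transformed to log2(TPM + 1), and fold changes on this scale understate those of low unigenes. Unigenes averaging 1 TPM or more over the 6 libraries compared were tested in limma 3.58.1 (R 4.3.3, variance trend, 10 residual and 2.19 prior degrees of freedom), with 1 mean per diet over all 15 libraries. Tests were two-sided and adjusted by Benjamini-Hochberg over the 12836 unigenes, with 0.05 as threshold. An exact permutation test of 3 against 3 cannot go below 0.10 and was not used. The fit was tested on simulated data.

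Classes were found by words of the description. Named unigenes are those past the threshold; the 12 described ones with the largest log2 fold change in each direction among those with an unadjusted p under 0.05 and groups apart; and, per class, the 3 with the smallest p and the most abundant one, of which the text gives the more informative. Unigenes named beyond this rule were chosen after their values were seen: further members of a class with groups apart or an unadjusted p under 0.05, members of the DN5272 component, and those called in the fit of the 2 diets alone. Classes, members and lists were chosen with earlier results of these data known. Alternatives were another pseudocount, other filters, a median-of-ratios scaling, the groups compared alone, the replicate number as a block, and leaving out libraries.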

Additional observations from a re-analysis of the deposited data

Results flagged for a closer look

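The response of 1 unigene differed between the diets. TRINITY_DN9219_c0_g1, described as cytochrome P450 6a2-like, had 7.95, 11.01 and 5.58 TPM on D-camphor at 17 mg/g, against 55.7, 57.6 and 89.6 TPM on EO at 10 mg/g. The test of the difference itself gave a log2 difference of -2.91 ± 0.29 (SE; limma, adjusted p = 0.0032), with every D-camphor library lower. It also rose on D-camphor at 17 mg/g relative to untreated larvae, which had 1.36, 0.70 and 1.76 TPM.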

How the results depend on the processing

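Of the 5 unigenes called between D-camphor at 17 mg/g and untreated larvae, TRINITY_DN12993_c0_g1 was called under every alternative run. The count was 51 without a filter on low values (19 higher, 32 lower), 8 under median-of-ratios scaling (7 higher, 1 lower), 25 when the groups were compared alone (24 higher, 1 lower), and 1 with the replicate block. Leaving out 1 library at a time gave 1 to 8 calls. Between 17 and 41 mg/g of D-camphor, the count was 8 without a filter and 17 when those groups were compared alone, against 0, and 0 to 2 when 1 library was left out. The cause of these moves was not tested. Under scaling the median log2 fold change of all unigenes was 0.00, against 0.03 as deposited. Of the fold changes of 116 of the named unigenes under the alternatives, 2533 stayed on the same side of the threshold. A further 53 no longer passed (all among the 4 other calls), 15 newly passed and 0 changed sign. These 116 do not include every unigene named above that passed under an alternative. Class medians moved past the spread in 9 recomputations and not in 704; that of cuticle proteins was between 0.47 without a filter and 2.08 with a filter at 5 TPM. Same-numbered libraries of the 2 diets deviated together at correlations of 0.168, 0.356 and -0.0687, and differently numbered ones at -0.387 to 0.269. These ranges overlap and rest on 3 libraries per diet, so whether the numbers pair the libraries was not settled. The replicate block is given only here. In it TRINITY_DN12993_c0_g1 passed, and the 4 other calls did not (limma, adjusted p = 0.13). Precision is limited by 3 libraries per diet, by the spread between untreated libraries, and by values near 0 TPM, where the depth is unknown.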
